A study of Mus musculus with 6 samples.

Results

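The genes described here are 10 mouse genes of the inflammasome, of pyroptosis and of necroptosis: Nlrp3, Pycard, Casp1, Casp4, Gsdmd, Il1b, Il18, Ripk1, Ripk3 and Mlkl. They were chosen by name for their known roles, with earlier results of these data known, and they are 10 of the 54929 genes in the deposited table. Their mRNA was measured by sequencing in left ventricles of wild-type C57BL/6 mice that had undergone transverse aortic constriction (TAC), an operation that narrows the aorta and loads the left ventricle with pressure. The anti-PD-1 group (3 libraries) received a PD-1 antibody, directed at a receptor that restrains T cells, and the anti-IgG group (3 libraries) received a control antibody. Each antibody was given intraperitoneally at 10 mg/kg every 3 days from day 14 after the operation, and every library is labelled 5 weeks, without saying from which event the time runs. Both groups had undergone TAC, and no group without the operation was analysed here. The labels do not say whether each library came from a separate animal or from pooled hearts, so the p-values below measure only the spread between these libraries, which may be technical.

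An inflammasome is a protein complex in which a sensor such as NLRP3 binds the adaptor ASC, the product of Pycard, and brings together molecules of caspase-1, which then cuts the precursors of the cytokines interleukin-1β and interleukin-18 and the pore-forming protein gasdermin D. Gasdermin D pores in the plasma membrane release the cytokines and can end in lytic cell death, called pyroptosis. Necroptosis is another lytic death, in which RIPK1 and RIPK3 assemble and RIPK3 phosphorylates MLKL, the protein that breaks the membrane. Much of the control of these proteins is by cleavage, assembly or phosphorylation, which mRNA levels do not measure. In the heart, inflammasome genes are known from macrophages, neutrophils and fibroblasts as well as from cardiomyocytes. These are bulk libraries of tissue, in which fewer cells of a type and less RNA per cell cannot be told apart.

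Summed counts were 18063344 to 21093163 per library, and the spread within a group was well beyond counting error (chi-square per degree of freedom 47.3 to 76.1). Levels are given as CPM, reads scaled to a common library size, after TMM normalisation for differences in composition. A change was called when the Benjamini-Hochberg adjusted p of edgeR's quasi-likelihood test, adjusted over all 14807 tested genes, was under 0.05. By that rule 3118 genes, 21.1% of those tested, differed between the anti-PD-1 and the anti-IgG libraries: 10.3% rose and 10.8% fell. Of the called genes 48.9% rose, against 36.8% under upper quartile scaling, which moved the median log2 fold change of all genes to -0.12.

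Of the 10 genes, Gsdmd and Pycard fell with anti-PD-1, none rose, 7 did not pass the test, and Il18 had too few reads to be tested. The 2 calls are 22.2% of the 9 tested genes, against 21.1% of all genes, so this share is near the background. Without adjustment, 3 of the 9 had p under 0.05 by edgeR, the additional gene being Casp1, against 5457 of all 14807 tested genes. Log2 fold changes of anti-PD-1 over anti-IgG were below 0 in 6 of the 9 and ran from -1.19 to 0.40, with a median of -0.48, against -0.03 over all tested genes. In Gsdmd, Casp1 and Pycard each anti-PD-1 library was lower than each anti-IgG library. Over all tested genes the groups did not overlap in 41.0%, and in 20.8% they did not overlap with anti-PD-1 lower.

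**Figure D1:**
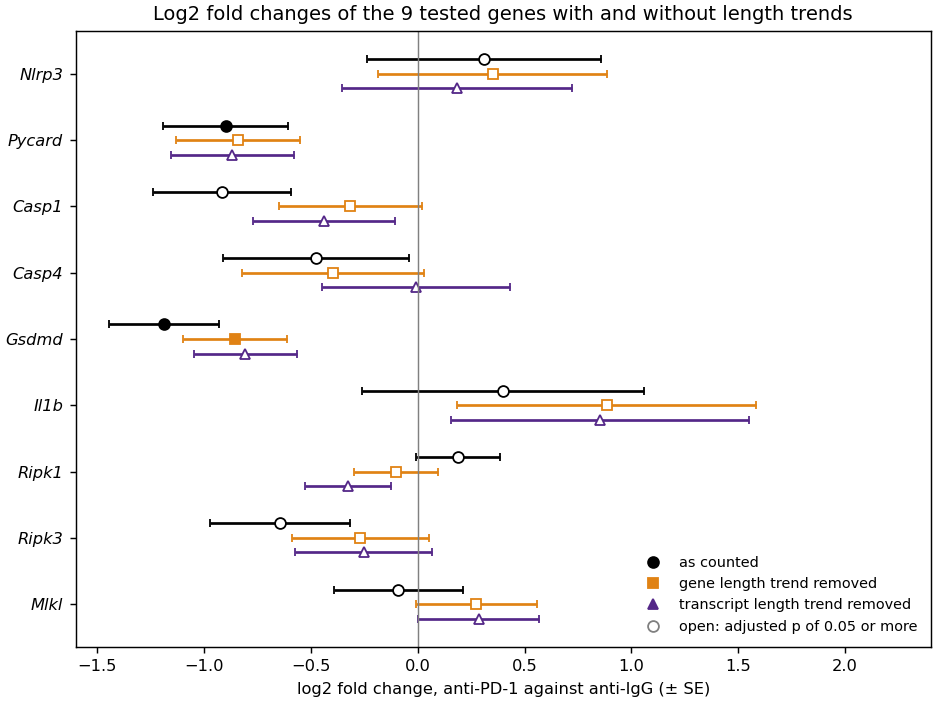
Log2 fold change of anti-PD-1 over anti-IgG for the 9 tested genes (points, with bars of ± 1 SE; filled where the adjusted p was under 0.05), as fitted by edgeR and after a trend with gene length or with transcript length was taken out. Gsdmd at -1.19 and Pycard at -0.90 passed the test as fitted. Ripk1 and Mlkl lie on the other side of 0 after either length trend was removed.

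The sensor Nlrp3 (ENSMUSG00000032691, mm10 chr11:59541568-59566956, plus strand) had the lowest group means per length of the tested genes, with libraries that overlapped those of Il1b. Its level was 1.25, 1.61 and 1.87 CPM with anti-PD-1, against 0.359, 2.01 and 1.45 CPM with anti-IgG, from 25 to 39 reads per anti-PD-1 library and 7 to 36 per anti-IgG library. The lowest and the highest value both came from the anti-IgG group, so the groups overlap. Its log2 fold change was 0.31 ± 0.55 (SE; adjusted p = 0.717), and it turned to -0.13 without anti-IgG library 1, the library with 7 reads. No difference was detectable at this depth.

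Pycard (ENSMUSG00000030793, chr7:127989708-127993867, minus strand) encodes ASC, which links NLRP3 and other sensors to caspase-1. Its level was 3.99, 2.47 and 3.46 CPM with anti-PD-1, against 5.79, 7.33 and 5.41 CPM with anti-IgG. The highest anti-PD-1 value lay below the lowest anti-IgG value. Pycard averaged 3.30 ± 0.77 CPM with anti-PD-1, against 6.18 ± 1.02 CPM with anti-IgG (SD, n = 3 each), a log2 fold change of -0.90 ± 0.29 (SE) with an adjusted p of 0.0497 in edgeR, just under the threshold. Leaving out any 1 of the 6 libraries ended the call (adjusted p from 0.0617 to 0.189), as did RLE scaling (0.0542).

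Casp1 (ENSMUSG00000025888, chr9:5298517-5307265, plus strand) encodes the protease of the canonical inflammasome. With anti-PD-1 its level was 3.69, 2.04 and 3.17 CPM, and with anti-IgG it was 4.87, 7.16 and 4.81 CPM. As in Pycard, the groups did not overlap, and anti-PD-1 library 2 was the lowest and anti-IgG library 2 the highest of the 6. The means were 2.97 ± 0.85 CPM with anti-PD-1, against 5.61 ± 1.34 CPM with anti-IgG (SD, n = 3 each). The log2 fold change of -0.92 ± 0.32 (SE) was as large as that of Pycard but did not pass the edgeR test (adjusted p = 0.0657). When genes were first limited to those reaching FPKM 1 in 3 or more libraries, limma on log2(FPKM + 1) called it (log2 fold change -0.64, adjusted p = 0.0422). The same limma fit without that limit did not (adjusted p = 0.136), and no other setting called Casp1.

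Casp4 (ENSMUSG00000033538, chr9:5308828-5336783, plus strand) lies 1562 bp beyond the end of Casp1 and encodes mouse caspase-11, which binds bacterial lipopolysaccharide in the cytosol and cuts gasdermin D without an inflammasome. Its level was 9.92, 3.43 and 6.58 CPM with anti-PD-1, against 5.17, 14.4 and 8.26 CPM with anti-IgG. The spread within each group was wide and the groups overlap: anti-PD-1 library 2 was the lowest of all and anti-IgG library 2 the highest. Casp4 did not pass (log2 fold change -0.48 ± 0.43 SE, edgeR adjusted p = 0.456).

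Gsdmd (ENSMUSG00000022575, chr15:75862327-75867408, plus strand) encodes gasdermin D, the protein whose cut end forms the pyroptotic pore, and had the largest difference of the 9. Its level was 4.64, 4.88 and 6.49 CPM with anti-PD-1, against 10.3, 15.7 and 10.5 CPM with anti-IgG, from 91 to 135 and from 202 to 281 reads. All anti-PD-1 values lay below all anti-IgG values, with a wide gap between the groups. The means were 5.33 ± 1.01 CPM with anti-PD-1, against 12.2 ± 3.07 CPM with anti-IgG (SD, n = 3 each). Gsdmd fell to 0.439 times its anti-IgG level, a difference of -1.19 ± 0.26 on the log2 scale (SE; edgeR adjusted p = 0.0126). The call ended without anti-IgG library 2 (log2 fold change -0.98, adjusted p = 0.0712) or without anti-PD-1 library 1 (-1.09, adjusted p = 0.0523), and held when any other single library was left out.

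**Figure D2:**
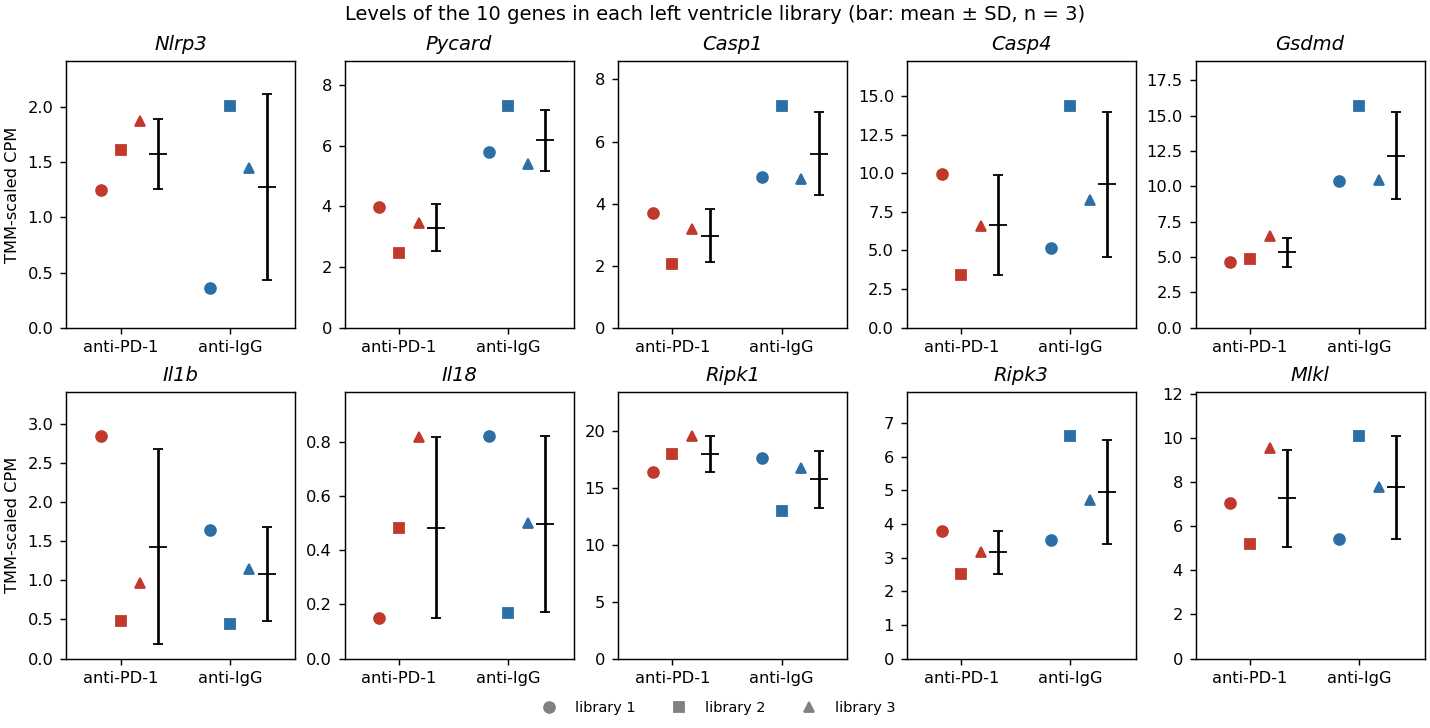
Level of each of the 10 genes in each library (TMM-scaled CPM; 1 point per library, anti-PD-1 left and anti-IgG right of each panel, bars at the mean ± SD). In Gsdmd, Casp1 and Pycard the anti-PD-1 points all lie below the anti-IgG points, and in the other 7 genes the groups overlap.

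The promoters of Pycard and Casp1 are shown because these are the tested genes, after Gsdmd, with the lowest log2 fold changes, together with that of Ripk3, the next in order. Each window runs from 250 bases before to 50 bases after the start of the gene in RefSeq (GRCm38.p6, the build also called mm10), read 5′ to 3′ on the gene's strand. Capitals mark matches, on either strand, to the core of interferon regulatory factor sites (GAAANNGAA), to the core of STAT sites (TTCNNNGAA) or to the GC box (GGGCGG). The windows are chr7:127993818-127994117 on the minus strand for Pycard, chr9:5298267-5298566 on the plus strand for Casp1 and chr14:55788808-55789107 on the minus strand for Ripk3.
Pycard: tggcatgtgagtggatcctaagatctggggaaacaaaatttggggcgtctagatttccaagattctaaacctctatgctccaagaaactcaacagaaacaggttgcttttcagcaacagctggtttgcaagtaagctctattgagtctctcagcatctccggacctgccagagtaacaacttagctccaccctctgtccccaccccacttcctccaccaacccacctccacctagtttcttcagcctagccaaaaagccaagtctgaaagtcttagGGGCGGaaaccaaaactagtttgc
Casp1: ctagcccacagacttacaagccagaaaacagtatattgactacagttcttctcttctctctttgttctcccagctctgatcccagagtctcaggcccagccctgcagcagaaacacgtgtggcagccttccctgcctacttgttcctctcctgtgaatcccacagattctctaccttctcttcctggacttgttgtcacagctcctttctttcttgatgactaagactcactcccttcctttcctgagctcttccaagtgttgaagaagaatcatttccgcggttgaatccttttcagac
Ripk3: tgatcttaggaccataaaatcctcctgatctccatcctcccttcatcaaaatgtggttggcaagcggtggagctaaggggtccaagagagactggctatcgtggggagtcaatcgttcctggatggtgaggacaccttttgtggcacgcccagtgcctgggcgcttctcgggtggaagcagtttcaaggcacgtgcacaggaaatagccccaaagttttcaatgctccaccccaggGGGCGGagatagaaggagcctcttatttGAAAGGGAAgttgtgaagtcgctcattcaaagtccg
In the Pycard window the capitals mark 1 GC box, 26 bases after the start. The Casp1 window holds none of the 3 motifs. In the Ripk3 window a GC box begins 14 bases before the start and an interferon regulatory factor core begins 14 bases after it. Windows were present for 9 of the 10 genes, 12 in all because Casp4, Nlrp3 and Ripk1 each have a pair of starts. The interferon regulatory factor core occurred in 2 of these 12 windows (Ripk3 and the second start of Ripk1), against 8.56% of all 32851 RefSeq windows of the same length. The STAT core occurred in 1 of the 12 (the second start of Ripk1), against 8.3% of all windows, and the GC box in 4 of the 12, against 35.7%. These matches describe letters only.

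Il1b (ENSMUSG00000027398, chr2:129364570-129371139, minus strand), the gene of pro-interleukin-1β, varied more within groups than between them. Its level was 2.84, 0.482 and 0.961 CPM with anti-PD-1, against 1.64, 0.448 and 1.15 CPM with anti-IgG. Library 1 was the highest and library 2 the lowest of each group, and the ranges overlap. The fitted log2 difference for Il1b was 0.40 ± 0.66 (SE; edgeR adjusted p = 0.697), which turned to -0.57 without anti-PD-1 library 1. The summed level of 8 neutrophil markers was 24.7, 2.89 and 4.76 CPM with anti-PD-1, against 15.4, 3.64 and 6.71 CPM with anti-IgG (exact 2-sided permutation p = 0.9, where 0.1 is the smallest that 3 against 3 libraries allow). The 4 libraries with the most Il1b were also the 4 with the highest neutrophil sum, in the same order. The remaining libraries, anti-PD-1 library 2 and anti-IgG library 2, changed places between the orders. The sum leans on a few markers: S100a8 alone had 9.97 of the 24.7 CPM in anti-PD-1 library 1. Only 4 of the 8 markers had enough reads to be tested singly. All 8 markers had reads in at least 1 library, but the defining marker Ly6g had 3 reads over the 6 libraries, and the part of neutrophils in the Il1b values was not tested.

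**Figure D3:**
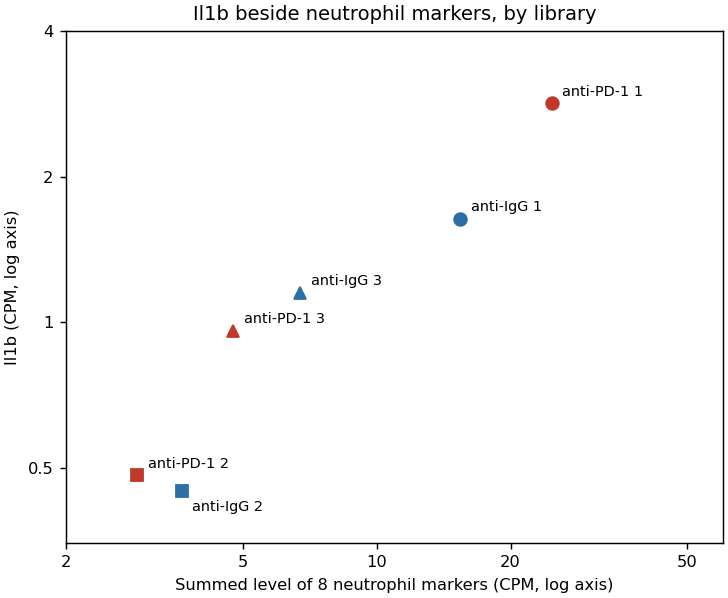
Il1b level against the summed level of 8 neutrophil markers in each library (both TMM-scaled CPM on log axes; 1 point per library). Anti-PD-1 library 1 is highest on both axes, at 24.7 CPM of markers and 2.84 CPM of Il1b, and anti-IgG library 1 is next on both.

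Il18 (ENSMUSG00000039217, chr9:50554827-50581840, plus strand), the gene of pro-interleukin-18, was at the edge of detection. Reads numbered 3, 9 and 17 with anti-PD-1, against 16, 3 and 10 with anti-IgG, which is 29 reads in each group. Every library held some reads, and the groups overlap. With reads pooled within a group and scaled by the TMM-adjusted library sizes, its level with anti-PD-1 was 0.964 times that with anti-IgG (95% interval 0.556 to 1.67, counting error only). The interval leaves out the spread between libraries, so changes beyond these bounds may also have gone undetected at this depth. The end of the gene's annotated span nearest its start overlaps Bco2 on the opposite strand, which had 2 to 7 reads per anti-PD-1 library and 3 to 11 per anti-IgG library, and it is not stated whether counting used strand.

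None of the necroptosis genes passed the test. Ripk1 (ENSMUSG00000021408, chr13:34002363-34037147, plus strand), the kinase and scaffold at TNF receptors, was at 16.3, 18.0 and 19.5 CPM with anti-PD-1, against at 17.6, 12.9 and 16.7 CPM with anti-IgG. The groups overlap, and anti-IgG library 2 was the lowest of the 6. Its log2 fold change was 0.19 ± 0.20 (SE; edgeR adjusted p = 0.521). The first bases of Ripk1 (34002363 to 34002794) overlap Serpinb6a on the opposite strand, a gene with 1843 to 2278 reads per library, and reads of that stretch cannot be told apart without strand.

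Ripk3 (ENSMUSG00000022221, chr14:55784995-55788865, minus strand), the kinase that activates MLKL, had 3.79, 2.52 and 3.17 CPM with anti-PD-1, against 3.53, 6.60 and 4.71 CPM with anti-IgG. Anti-PD-1 library 1 lay above anti-IgG library 1, and the other anti-PD-1 values lay below the anti-IgG group. The log2 fold change was -0.64 ± 0.33 (SE) and did not pass (edgeR adjusted p = 0.177).

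Mlkl (ENSMUSG00000012519, chr8:111311797-111338177, minus strand), the executioner of necroptosis, was at 7.03, 5.20 and 9.56 CPM with anti-PD-1, against at 5.43, 10.1 and 7.76 CPM with anti-IgG. The groups overlap nearly over their whole range. Mlkl averaged 7.26 ± 2.19 CPM with anti-PD-1, against 7.75 ± 2.32 CPM with anti-IgG (SD, n = 3 each), a difference of -0.09 ± 0.30 on the log2 scale (SE; edgeR adjusted p = 0.853). The sign turned without anti-IgG library 2 (0.13) or without anti-PD-1 library 2 (0.12).

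Within the groups, the order of the libraries differed between genes. Anti-IgG library 2 had the highest level of its group in 7 of the 10 genes (Gsdmd, Casp1, Casp4, Nlrp3, Pycard, Ripk3 and Mlkl) and the lowest in the other 3. Anti-IgG library 1 had the highest level of its group in 3 genes and the lowest in 5. Anti-PD-1 library 1 had the highest level of its group in 5 of the 10 genes and the lowest in 4, anti-PD-1 library 2 had the lowest in 6, and anti-PD-1 library 3 had the highest in 5. Without anti-IgG library 2, 0 of the 10 genes that the count filter then kept passed the edgeR test. An unadjusted p under 0.05 was found in 2 of them, against 3958 of all 15105 genes tested in that fit. Without anti-PD-1 library 1 also 0 of the 10 passed the edgeR test. In that fit 3 had an unadjusted p under 0.05, against 4227 of all 15243 tested genes.

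The 10 genes differ in length, and the comparison was repeated with each library's trend of level with length taken out. Once the trend on gene length as the authors give it was taken out, 1526 genes (10.3%) passed over the whole table, and of the 9 genes only Gsdmd did (log2 fold change -0.85, edgeR adjusted p = 0.0459). With the trend on coding and 3′ UTR length taken out, 934 genes (6.31%) passed and 0 of the 9 did. By edgeR 2 of the 9 had an unadjusted p under 0.05, against 3708 of all 14807 tested genes. Gsdmd was then at -0.81 (adjusted p = 0.0691) and Pycard at -0.87 (adjusted p = 0.0901). Casp1 moved to -0.32 with the gene length trend out (edgeR adjusted p = 0.569) and to -0.44 with the transcript length trend out (0.44). Ripk1, the longest of the 10 at 8344 bp, turned to -0.10 and -0.33, and Mlkl turned to 0.27 and 0.29. Casp4 was at -0.40 and -0.01, Ripk3 at -0.27 and -0.25, Il1b at 0.88 and 0.85, and Nlrp3 at 0.35 and 0.18. The median of the 9 was -0.27 and -0.25 under these corrections.

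Ratios of reads between a pair of the genes within a library do not depend on how libraries are scaled. Of the 45 pairs among the 10 genes, 14 had ratios that did not overlap between the groups, against 37.5% of all pairs of 14731 genes. Gsdmd per Mlkl was 0.660, 0.938 and 0.678 with anti-PD-1, against 1.91, 1.56 and 1.35 with anti-IgG, with each anti-PD-1 ratio below each anti-IgG ratio. Gsdmd per Ripk1 was 0.284, 0.271 and 0.333 with anti-PD-1, against 0.587, 1.22 and 0.626 with anti-IgG. Ripk3 per Mlkl, the kinase against its substrate, was 0.539, 0.485 and 0.332 with anti-PD-1, against 0.651, 0.656 and 0.606 with anti-IgG, although neither gene passed the test alone. Pairs that share a gene are not independent, and these pairs were picked after their values were seen.

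Levels can be compared between genes only per length. On the authors' FPKM scale (reads scaled by gene length and library size), the order with anti-PD-1 was Mlkl (2.99), Gsdmd (2.12), Ripk1 (2.04), Casp1 (1.88), Casp4 (1.70), Ripk3 (1.31), Pycard (0.824), Il1b (0.712), Il18 (0.444) and Nlrp3 (0.367). With anti-IgG the order was Gsdmd (4.76), Casp1 (3.48), Mlkl (3.13), Casp4 (2.32), Ripk3 (2.00), Ripk1 (1.76), Pycard (1.51), Il1b (0.529), Il18 (0.449) and Nlrp3 (0.291). With anti-PD-1 the only neighbours whose libraries did not overlap were Ripk3 and Pycard. With anti-IgG the only such neighbours were Pycard and Il1b. With anti-IgG the 7 genes from Gsdmd to Pycard thus had no gap between neighbours, and the cytokine genes and Nlrp3 lay below them. With anti-PD-1 this did not hold, as Il1b (0.235 to 1.42) overlapped Pycard (0.602 to 0.999). Genes that were not neighbours could still be separate: with anti-IgG, Gsdmd (4.08 to 6.09) lay above Mlkl (2.21 to 4.025). This order depends on the length used. The authors' length of Casp4 is 3710 bp, 2.59 times its transcript with the longest coding sequence (1435 bp). Per kb of that transcript, Casp4 averaged 4.63 CPM with anti-PD-1, against 6.46 CPM with anti-IgG. On that scale its libraries overlap with those of Mlkl (2.60 to 4.77 CPM per kb, against 2.39 to 6.91 for Casp4) with anti-PD-1, and with those of Gsdmd with anti-IgG. The place of Casp4 beside these genes therefore does not hold beyond the spread. Gsdmd lay above Mlkl with anti-IgG on that scale too (5.77 to 8.77, against 2.71 to 5.03 CPM per kb).

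**Figure D4:**
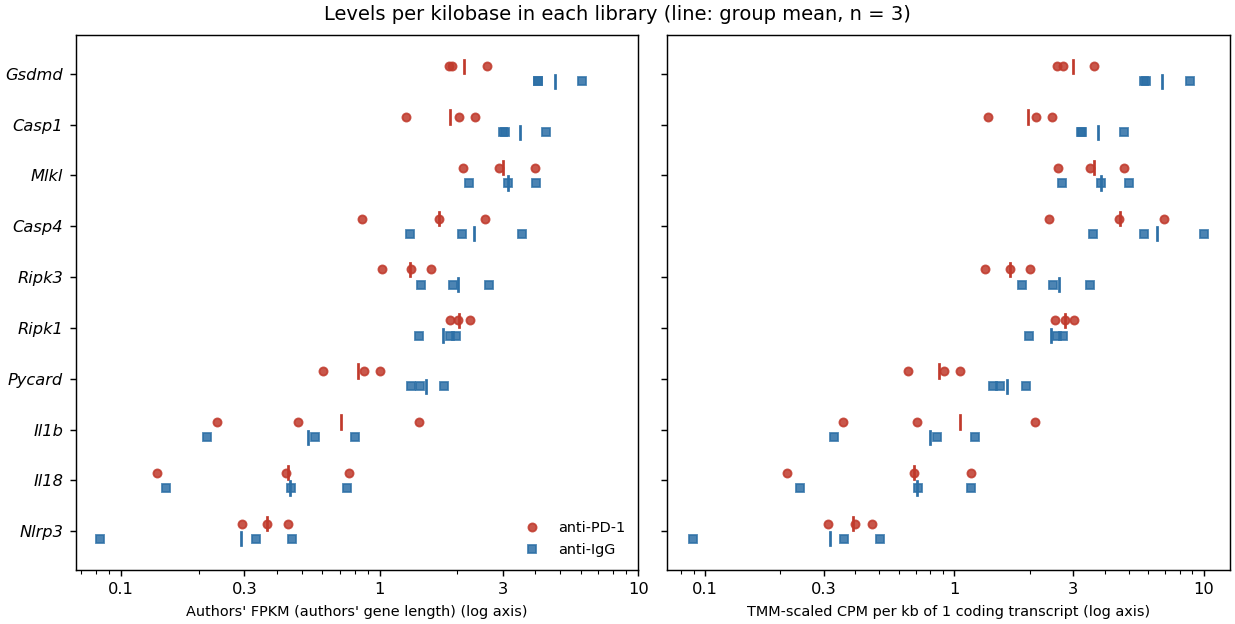
Level of the 10 genes per length in each library (1 point per library, line at the group mean; anti-PD-1 above and anti-IgG below in each row), as the authors' FPKM on the left and as TMM-scaled CPM per kb of transcript on the right, both on log axes. Il1b, Il18 and Nlrp3 are lowest in the anti-IgG libraries on the authors' scale, and Casp4 stands higher per kb of transcript.

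Around these genes, 5 lists of their pathways were counted, chosen like the 10 genes with earlier results of these data known. Among 24 genes of other inflammasome sensors and pyroptosis, 20 were tested, 1 rose, 0 fell and 19 did not pass, with 5 at an unadjusted p under 0.05 by edgeR and a median log2 fold change of -0.25. The share called was 5.0%, against 21.1% of all tested genes. An unadjusted p under 0.05 by edgeR was found in 5457 of all 14807 tested genes. The gene that rose was Nek7, whose product binds NLRP3 and is needed for its activation. Nek7 was at 193, 179 and 166 CPM with anti-PD-1, against at 103, 81.6 and 84.7 CPM with anti-IgG. Every anti-PD-1 library was above every anti-IgG library (log2 fold change 1.00 ± 0.18 SE, edgeR adjusted p = 0.00755), and the call held without any 1 library (adjusted p up to 0.0487) and with either length trend removed (0.76 and 0.75). Casp8, the caspase that starts apoptosis and restrains necroptosis, was next by unadjusted p and did not pass (log2 fold change -0.68, edgeR adjusted p = 0.0626). The other pyroptotic pore gene Gsdme had 12.2 ± 1.88 CPM with anti-PD-1, against 12.7 ± 2.07 CPM with anti-IgG (SD, n = 3 each; edgeR adjusted p = 0.864). None of the other tested sensor genes passed either, among them Aim2 (-0.40), Nlrc4 (0.25), Naip2 (0.38) and Naip5 (-0.66).

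Of 18 genes of interleukin-1 family signalling, 15 were tested, 1 rose, 1 fell and 13 did not pass (13.3% called, against 21.1% of all tested genes), with a median of 0.32. Traf6, a ubiquitin ligase downstream of interleukin-1 receptors, rose to 30.0 ± 4.78 CPM with anti-PD-1, against 15.7 ± 3.76 CPM with anti-IgG (SD, n = 3 each; log2 fold change 0.93, edgeR adjusted p = 0.0164). Sigirr, an inhibitory receptor of the family, fell to 5.42 ± 1.35 CPM with anti-PD-1, against 9.97 ± 1.51 CPM with anti-IgG (log2 fold change -0.88, edgeR adjusted p = 0.0351). Neither call held with a length trend removed: Traf6 had adjusted p of 0.0505 and 0.116, and Sigirr 0.095 and 0.299. The Traf6 call was also lost without anti-IgG library 2 or 3, or else anti-PD-1 library 1 (adjusted p up to 0.0826), and the Sigirr call without any library but anti-IgG library 3 and anti-PD-1 library 2 (up to 0.124). Myd88, the adaptor of these receptors, had a log2 fold change of -0.56 and did not pass (edgeR adjusted p = 0.078). The receptor genes Il1r1 (0.32) and Il1rap (0.51) did not pass.

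All 34 genes of the TNF receptor complex and of necroptosis regulation were tested: 6 rose, 2 fell and 26 did not pass, with a median of -0.01. The 8 calls are 23.5% of the list, near the background of 21.1%. The balance of directions turned under upper quartile scaling, where 3 rose and 5 fell. The largest rise was in Cyld, a deubiquitinase that acts on RIPK1, with 60.6 ± 11.2 CPM with anti-PD-1, against 32.2 ± 3.49 CPM with anti-IgG (SD, n = 3 each; log2 fold change 0.91, edgeR adjusted p = 0.0105). Tab2 and Map3k7, parts of the TAK1 kinase complex, rose by 0.70 and 0.52, and Ikbkg, the NEMO subunit of the IκB kinase, by 0.60. Tnfrsf1b, TNF receptor 2, rose by 0.68, and Cflar, the FLIP protein that restrains caspase-8, by 0.66. Cdc37, a co-chaperone of kinases that include RIPK3, fell by 0.81, and Sharpin, a subunit of the linear ubiquitin ligase, fell by 0.66. These are log2 fold changes from edgeR, with adjusted p of 0.0179 (Tab2), 0.0493 (Map3k7), 0.0388 (Ikbkg), 0.0237 (Tnfrsf1b), 0.0338 (Cflar), 0.0346 (Cdc37) and 0.0411 (Sharpin). Without anti-IgG library 2 none of the 8 passed. By edgeR 10 of the 34 then had an unadjusted p under 0.05, against 3958 of all 15105 genes tested in that fit. The number of the 34 that passed was 1 without anti-IgG library 3, or else anti-PD-1 library 1, and 2 without anti-PD-1 library 3. With the gene length trend removed 4 of the 34 passed, of which Cdc37 and Tnfrsf1b are among the 8, and with the transcript length trend removed 2 did (Cdc37 and Cflar). Cyld, Tab2, Map3k7, Ikbkg and Sharpin lost their calls under both corrections, and Cyld moved to 0.48 (adjusted p = 0.104) and 0.22 (adjusted p = 0.457). Zbp1, a nucleic acid sensor that engages RIPK3, had 2.20 ± 0.84 CPM with anti-PD-1, against 4.55 ± 1.38 CPM with anti-IgG and did not pass (log2 fold change -1.04, edgeR adjusted p = 0.0791).

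The 13 genes of inflammasome priming were all tested: 1 rose, 2 fell and 10 did not pass (23.1% called, near the 21.1% of all tested genes), with a median of -0.34. Tlr4, the receptor for lipopolysaccharide, rose, with 91.4, 55.9 and 53.8 CPM with anti-PD-1, against 24.3, 21.9 and 22.5 CPM with anti-IgG. The anti-PD-1 libraries all stood far above the anti-IgG libraries, which lay close together (log2 fold change 1.55 ± 0.22 SE, edgeR adjusted p = 0.00409). This call held without any 1 library (adjusted p up to 0.0342) and with either length trend removed (1.44 and 1.29). Irf1, a transcription factor of the interferon response, fell, with a log2 fold change of -0.80 (edgeR adjusted p = 0.0343). Irf1 had 13.6, 22.9 and 14.1 CPM with anti-PD-1, against 25.4, 32.3 and 30.2 CPM with anti-IgG, without overlap. Its call was lost with the gene length trend removed, where the log2 fold change was -0.76 (adjusted p = 0.0512), and with the transcript length trend removed (-0.60, adjusted p = 0.119). The call was also lost without anti-IgG library 2 or 3, or else anti-PD-1 library 1 or 3 (adjusted p up to 0.13).

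Among 16 genes of ESCRT-III, the machinery that sheds membrane damaged by gasdermin D or MLKL pores, all were tested, 2 rose, 1 fell and 13 did not pass (18.8% called, near the 21.1% of all tested genes), with a median of -0.10. Chmp4c, a filament subunit, rose to 48.0 ± 10.6 CPM with anti-PD-1, against 21.1 ± 3.57 CPM with anti-IgG (SD, n = 3 each; log2 fold change 1.18, edgeR adjusted p = 0.00744), and the call held without any 1 library. Pdcd6ip, the adaptor ALIX, rose by 0.65 on the log2 scale (edgeR adjusted p = 0.0261). Chmp2a, another filament subunit, fell to 36.3 ± 10.8 CPM with anti-PD-1, against 71.1 ± 4.23 CPM with anti-IgG (log2 fold change -0.97, edgeR adjusted p = 0.0149). Chmp2a moved to -0.33 (adjusted p = 0.255) with the gene length trend removed, and its call was lost without anti-IgG library 2, or else anti-PD-1 library 1 (adjusted p up to 0.06). The Pdcd6ip call was lost with the gene length trend removed (0.44, adjusted p = 0.105) and held with the transcript length trend removed (0.67, adjusted p = 0.045). It was also lost without anti-IgG library 2 or 3, or else anti-PD-1 library 1 or 3 (adjusted p up to 0.107). In all 5 lists, genes that passed beyond the first 3 by unadjusted p are named because they passed.

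**Figure D5:**
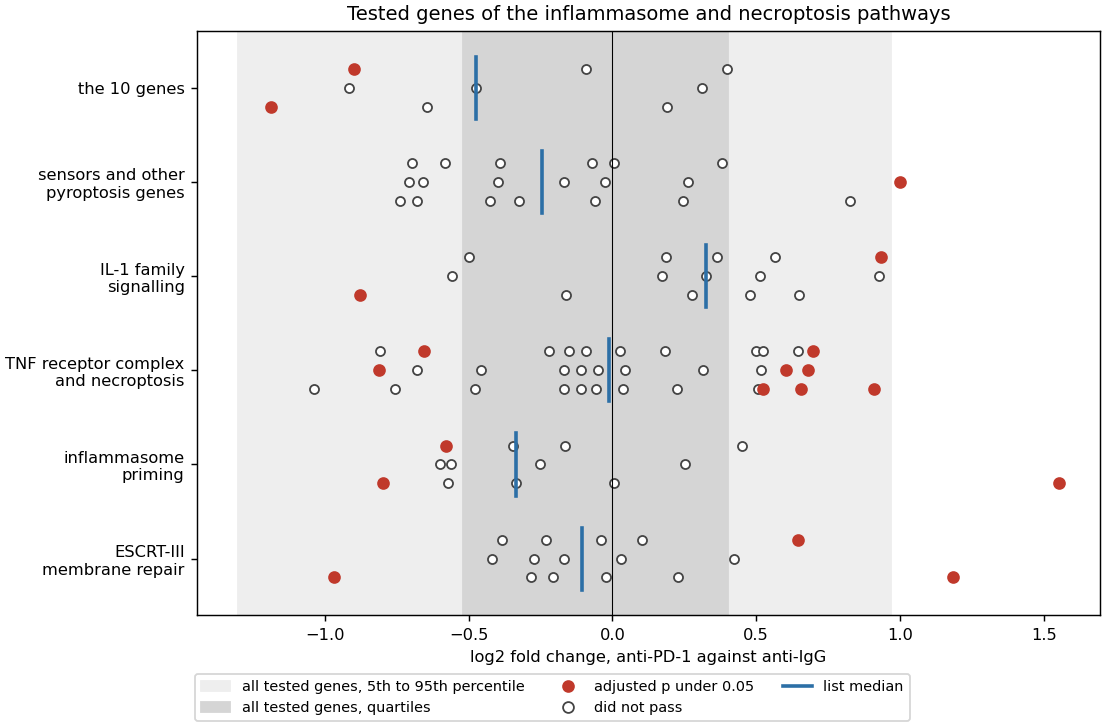
Log2 fold change of anti-PD-1 over anti-IgG for each tested gene of the 9 described here and of the 5 pathway lists (1 point per gene, filled where the edgeR adjusted p was under 0.05, with a line at the list's median; shading marks the quartiles and the 5th to 95th percentiles of all tested genes). Medians run from -0.48 for the 9 genes to 0.32 for interleukin-1 family signalling, and Tlr4 at 1.55 is the highest point.

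Markers of the cells that carry these genes were summed in each library, so the most abundant markers weigh most in each sum. Among the macrophage and monocyte markers Lyz2 alone had 161 to 180 CPM with anti-PD-1, against 171 to 324 CPM with anti-IgG. Among the fibroblast markers Dcn alone had 784 to 1124 CPM with anti-PD-1, against 828 to 1104 CPM with anti-IgG. The 10 macrophage and monocyte markers, all with reads, summed to 331 to 372 CPM with anti-PD-1, against 331 to 608 CPM with anti-IgG (exact 2-sided permutation p = 0.3). The anti-IgG libraries 2 and 3 were the highest, at 608 and 572 CPM, and anti-IgG library 1 lay within the anti-PD-1 range. Single markers went both ways: Adgre1, the F4/80 antigen, rose (log2 fold change 0.97, edgeR adjusted p = 0.0185), and the complement genes C1qa (-1.55, 0.0373) and C1qb (-0.91, 0.0334) fell. The other 7 did not pass. The C1qa and C1qb calls were lost in each fit that left out a library other than anti-IgG library 1 (adjusted p up to 0.128 and 0.141). They were also lost with the gene length trend removed (-0.79, adjusted p = 0.214, and -0.19, 0.629) and with the transcript length trend removed (-0.87, 0.182, and -0.24, 0.53). The Adgre1 call held with either length trend removed (1.11 and 1.01), and was lost without anti-IgG library 2, or else anti-PD-1 library 1 or 3 (adjusted p up to 0.0871). The part of macrophages in the values of Gsdmd, Casp1 and Pycard was not tested. Of the 8 cardiomyocyte markers, which check the labelled tissue, 1 rose and 3 fell (50.0% called, against 21.1% of all genes). Myl2, a myosin light chain of the ventricle, fell (log2 fold change -1.87, edgeR adjusted p = 0.0138), as did Tnni3, cardiac troponin I (-1.35, 0.0155), while Ryr2, the calcium release channel, rose (1.39, 0.00644). These calls were lost with the transcript length trend removed (adjusted p = 0.0726 for Myl2, 0.147 for Tnni3 and 0.1 for Ryr2). With the gene length trend removed, Myl2 (-1.43, edgeR adjusted p = 0.0339) and Ryr2 (0.85, 0.033) passed and Tnni3 did not (-0.94, 0.055). The Ryr2 call held without any 1 library. The Myl2 call was lost without anti-IgG library 2, and the Tnni3 call without anti-IgG library 2, or else anti-PD-1 library 1. All 8 had reads, and they summed to 20090 to 34300 CPM with anti-PD-1, against 30810 to 36990 CPM with anti-IgG (exact permutation p = 0.3). The 6 fibroblast markers summed to 1336 to 2073 CPM with anti-PD-1, against 1270 to 1771 CPM with anti-IgG (exact permutation p = 0.4), and the 6 endothelial markers to 1159 to 1449 CPM with anti-PD-1, against 1433 to 1516 CPM with anti-IgG (exact permutation p = 0.2). Among the endothelial markers Egfl7, a secreted endothelial protein, fell to 29.4 ± 6.67 CPM with anti-PD-1, against 109.8 ± 25.1 CPM with anti-IgG (SD, n = 3 each; log2 fold change -1.90, edgeR adjusted p = 0.00224), a larger difference than in any of the 9 tested genes. The call held without any 1 library and with either length trend removed (-1.81 and -1.35), and the other 5 endothelial markers did not pass. The part of these cells in the values of the 10 genes was not tested.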

How the data were processed

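Left ventricular mRNA of 6 libraries was sequenced. The authors deposited read counts per gene, whose total per library is their depth, with featureCounts and mm10 named in the submitters' processing notes. The authors also deposited FPKM values and a gene length in bp per gene. Aligner, versions and use of strand are not given in the sources used here. Per the labels' protocols, mRNA was enriched and libraries were made with a NEBNext Ultra kit. Groups follow the labelled antibody.

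Tests on the counts used edgeR (version 4.0.16, R 4.3.3; filterByExpr, TMM, quasi-likelihood F test with robust=TRUE, 2-sided, Benjamini-Hochberg over all tested genes, threshold 0.05), and the scripts were tested on simulated data. The SE is the log2 fold change divided by the square root of F. Sums of markers were compared by exact permutation. Length trends were fitted with natural splines of 5 degrees of freedom on log2 CPM with a prior count of 2 and entered as offsets, using the authors' gene length or the coding and 3′ UTR lengths of the GENCODE M21 transcript with the longest coding sequence. Alternatives were RLE and upper quartile scaling, no filter, a filter of 1 CPM in 3 or more libraries, DESeq2 1.42.0, limma 3.58.1 (voom, and trend on log2 FPKM with a pseudocount of 1 or 0.1, with and without a filter of FPKM 1 in 3 or more libraries at the pseudocount of 1), a replicate block, mitochondrial and haemoglobin genes left out, and each library left out. The longest-transcript trend was added after seeing the data. In the pathway lists, the 3 genes with the smallest unadjusted p and every gene past the threshold are eligible for naming. A few other list members are named for their role, after their values were seen. Some eligible genes enter the counts but are not reported here by name. The 10 genes and the lists were chosen with earlier results of these data known. Intervals cover counting error only.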

Additional observations from a re-analysis of the deposited data

How the results depend on the processing

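Calls in the 6 libraries depended on single libraries and on length. As fitted, 3118 genes passed, with 2 of the 10 genes, 1 of the other sensor and pyroptosis genes, 2 of interleukin-1 family signalling, 8 of the TNF receptor complex list, 3 of priming and 3 of ESCRT-III. Leaving out 1 library gave 532 to 3646 genes, 0 to 1 of the 10, 1 to 3, 0 to 2, 0 to 11, 1 to 4 and 1 to 3 of the 5 lists in that order. Fewest genes passed without anti-IgG library 2 (532) or, next, anti-PD-1 library 1 (969), then anti-IgG library 3 (1564) and anti-PD-1 library 3 (1766).

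With log2(FPKM + 1) the counts were 504 genes, 0 of the 10, 0 of interleukin-1, 1 of TNF, 1 of priming and 0 of ESCRT-III, and with log2(FPKM + 0.1) they were 989 genes, 1 of the 10, 0, 1 and 1 in the first 3 of these lists. With the gene length trend removed they were 1526 genes, 1 of the 10, 0 of interleukin-1, 4 of TNF and 1 of ESCRT-III. With the transcript length trend removed they were 934 genes, 0 of the 10, 0 of interleukin-1 and 2 of TNF, and with the longest transcript 832 genes, 0, 0 and 1. Where a list had 0 calls, its members at an unadjusted p under 0.05 in the same limma or edgeR fit numbered 2 or 3 of the 10 genes, 3 to 5 of interleukin-1, 10 of TNF and 5 of ESCRT-III. Over all tested genes, such a p was found in 3676 (longest transcript), 3708 (transcript length) and 4305 (gene length) of 14807 in the length fits. In the FPKM fits it was found in 5911 (log2(FPKM + 1)) and 5940 (log2(FPKM + 0.1)) of 26579. Without anti-IgG library 2 it was found in 3958 of 15105, and without anti-PD-1 library 1 in 4227 of 15243. RLE scaling, no filter, limma-voom, the replicate block and leaving out mitochondrial and haemoglobin genes each gave 1 of the 10. The sensor list had 3 calls with upper quartile scaling and 3 with no filter. Upper quartile scaling moved the median of all genes to -0.12 and the share of called genes that rose to 36.8%, against 48.9% as fitted.

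Signs reversed, in genes that passed under none of these settings, as follows. With 1 library left out, Nlrp3 ran from -0.13 (no anti-IgG library 1) to 0.77, and Il1b from -0.57 (no anti-PD-1 library 1) to 0.82. Mlkl was at 0.13 without anti-IgG library 2, at 0.12 with anti-PD-1 library 2 left out, at 0.27 with the gene length trend removed, and at 0.29 and, with the longest transcript, 0.36 with the transcript trend removed. Ripk1 was at -0.10, -0.33 and -0.31 under the same 3 corrections, and Casp4 at 0.025 with the longest transcript. The cause of these changes was not tested. Deviations of same-numbered libraries correlated at 0.124, -0.143 and 0.214, and not every library correlated best with its own number. With 3 libraries per group these correlations cannot decide whether the numbers pair the libraries. The replicate block gave 3367 genes.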
